A study of Mus musculus with 2 samples.

Results

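The genes described here were 10 components of the circadian clock, Arntl, Npas2, Clock, Cry1, Nr1d1, Nr1d2, Dbp, Per1, Per2 and Per3, chosen by their exact gene symbols out of the 32285 genes in the files. They were grouped by the time at which their transcripts are known to peak, with 6 genes (Nr1d1, Nr1d2, Dbp, Per1, Per2 and Per3) in one arm, called here the E-box and D-box arm after the DNA elements that drive it, and 4 genes (Arntl, Npas2, Clock and Cry1) in the opposed arm. Their counts of unique molecular identifiers (UMIs), 1 for each RNA molecule captured, were summed per library and cell class over nuclei with 400 to 5000 detected genes and at most 10% mitochondrial UMIs.

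The data were single-nucleus RNA sequencing of frozen mouse colon from 2 libraries, a WT library and a library of Ncr1cre+ Hif-1αfl+/fl+ mice, termed HIF-1α KO, which lack a functional Hif1a gene in the NKp46+ innate lymphoid and natural killer cells in which the Ncr1 promoter drives Cre. Mice of both groups, 8 to 12 weeks old at the start, drank 2% dextran sodium sulfate (DSS), which injures the colonic epithelium, for 3 days followed by 4 days of recovery, in 4 cycles, and tissue was taken on day 28. Each library was a pool of 3 animals, so the genotypes could not be compared against the spread of replicates and no p-value is given. C57BL/6J is the strain listed among the materials of the study. The time of day at which tissue was taken is not given in the sources used here, and for genes whose transcripts cycle over the day the genotype, the pool, the library and the hour of collection cannot be told apart.

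In the clock of mammalian cells, BMAL1, the product of Arntl, pairs with CLOCK or its relative NPAS2 and activates genes with E-box elements, among them the Per and Cry genes, Nr1d1, Nr1d2 and Dbp. PER and CRY proteins then repress this pair, REV-ERBα and REV-ERBβ (from Nr1d1 and Nr1d2) repress Arntl, Npas2 and Cry1 through ROR elements, and DBP activates genes with D-box elements such as the Per genes, so that transcripts of the arms peak at opposite times of day in rodent tissues. The gut epithelium and its muscle layer carry such clocks, which are set by feeding, glucocorticoids and the brain, and in the intestine the clock is known for its part in the timing of nutrient transport, epithelial renewal and mucosal immunity.

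The WT library held 4896 barcodes with 13492810 UMIs and the HIF-1α KO library 4772 barcodes with 25489277 UMIs, and 3 barcodes occurred in both. After the filter 4884 and 4702 nuclei were left, with a median of 2058.5 and 4197 UMIs per nucleus, so the HIF-1α KO values rest on more counts over all nuclei, though on fewer in smooth muscle-like (653885 UMIs in WT and 475133 in HIF-1α KO) and fibroblast-like nuclei (542089 and 346549). The targeted gene Hif1a had 2284 and 4699 UMIs, or 172 and 199 counts per 1000000 UMIs (CPM), and Ncr1 had 1 and 0 UMIs (a count of 0 allows up to 3), so the deletion in NKp46+ cells could not be checked in these nuclei. Clusters were named from marker genes with the clock genes left out of the clustering, which gave 11 classes with at least 50 nuclei per library. They were surface absorptive-like (520 WT and 838 HIF-1α KO nuclei), goblet-like (595 and 951), Gsdmc enterocyte-like (367 and 545), crypt enterocyte-like (434 and 553), crypt stem-like (318 and 295), cycling-like (443 and 316), enteroendocrine-like (146 and 130), smooth muscle-like (271 and 130), fibroblast-like (227 and 117), B cell-like (102 and 155) and T or innate lymphoid-like (64 and 127). The T or innate lymphoid-like cluster also carried myeloid markers. Of the 3 unnamed clusters, those led by transcripts such as Gm42418 and AY036118 held 716 WT against 144 HIF-1α KO nuclei and 445 against 275, and one led by Csmd1 and Pcdh15 held 24 against 10.

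Promoters of 9 of the 10 genes were found in RefSeq promoter windows of build GRCm38.p6, which run from 250 bases before to 50 bases after a transcript start. The windows of 5 genes that carry the results below are shown 5′ to 3′ on the strand of the gene, since such elements drive the clock genes. Capitals mark matches, on either strand, to the E-box letters CACGTG and CACGTT, to the D-box letters TTATGNAA and to AGGTCA, the core of the element that REV-ERB and ROR proteins bind. The promoters are those of Nr1d1 (chr11:98775328-98775627, minus strand), Per3 (chr4:151044616-151044915, minus strand), Per1 (chr11:69098699-69098998, plus strand, the first of its listed starts), Arntl (chr7:113207261-113207560, plus strand, the second of its listed starts) and Cry1 (chr10:85185005-85185304, minus strand).
Nr1d1: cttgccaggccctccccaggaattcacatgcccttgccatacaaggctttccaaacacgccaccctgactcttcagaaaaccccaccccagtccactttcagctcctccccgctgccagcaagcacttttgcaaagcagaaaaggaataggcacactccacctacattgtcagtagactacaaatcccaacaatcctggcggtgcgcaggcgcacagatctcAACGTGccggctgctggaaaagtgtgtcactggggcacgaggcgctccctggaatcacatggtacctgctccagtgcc
Per3: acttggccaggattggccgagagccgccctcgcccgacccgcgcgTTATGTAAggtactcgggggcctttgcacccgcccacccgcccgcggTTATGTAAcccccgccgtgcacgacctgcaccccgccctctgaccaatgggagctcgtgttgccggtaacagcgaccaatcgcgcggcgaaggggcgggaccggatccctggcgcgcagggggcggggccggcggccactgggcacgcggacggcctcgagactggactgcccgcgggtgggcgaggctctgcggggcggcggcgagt
Per1: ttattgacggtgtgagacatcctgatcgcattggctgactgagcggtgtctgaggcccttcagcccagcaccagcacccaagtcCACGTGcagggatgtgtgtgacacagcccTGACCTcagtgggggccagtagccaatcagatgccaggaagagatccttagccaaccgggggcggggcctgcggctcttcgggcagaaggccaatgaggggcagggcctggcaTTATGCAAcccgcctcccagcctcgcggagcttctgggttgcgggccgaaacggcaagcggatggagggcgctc
Arntl: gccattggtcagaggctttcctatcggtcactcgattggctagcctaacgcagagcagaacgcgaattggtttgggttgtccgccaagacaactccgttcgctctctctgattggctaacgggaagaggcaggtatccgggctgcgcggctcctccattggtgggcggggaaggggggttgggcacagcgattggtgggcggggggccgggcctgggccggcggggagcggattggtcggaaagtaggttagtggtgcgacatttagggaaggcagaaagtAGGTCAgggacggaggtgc
Cry1: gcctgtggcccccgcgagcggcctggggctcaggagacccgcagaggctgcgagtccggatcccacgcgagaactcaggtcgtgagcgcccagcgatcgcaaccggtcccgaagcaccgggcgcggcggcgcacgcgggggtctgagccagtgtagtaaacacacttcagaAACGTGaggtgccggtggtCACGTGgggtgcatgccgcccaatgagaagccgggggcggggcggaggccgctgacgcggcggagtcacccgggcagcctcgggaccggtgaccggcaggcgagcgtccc
The Nr1d1 window held 1 CACGTT match, Per3 held 2 TTATGNAA matches, Per1 held 1 match each to CACGTG, TTATGNAA and AGGTCA, Arntl held 1 AGGTCA match, and Cry1 held 1 CACGTG and 1 CACGTT match. Of all 32851 promoter windows, 7.15% held CACGTG, 4.68% CACGTT, 3.38% TTATGNAA and 16.3% AGGTCA. A single AGGTCA match was also found in Nr1d2 and in 1 of 3 windows of Clock, and no match in the other listed windows of Per1 and Arntl or in the windows of Dbp and Npas2. These matches are descriptions of letters and no measurement of binding.

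Summed over all nuclei, the clock transcripts were shifted toward the E-box and D-box arm in the HIF-1α KO library. The 6 genes of this arm had 2444 UMIs in WT and 5466 in HIF-1α KO nuclei (184 and 232 CPM), a log2 ratio of HIF-1α KO over WT of 0.33 (95% interval 0.26 to 0.40). The opposed arm had 7145 and 12690 UMIs (539 and 538 CPM), a log2 ratio of -0.00 (-0.05 to 0.04). The E-box and D-box arm therefore made up 25.5% (24.6% to 26.4%, exact binomial interval) of clock UMIs in WT and 30.1% (29.4% to 30.8%) in HIF-1α KO nuclei. On the log2 scale the ratio of the arms was higher by 0.33 (0.25 to 0.41) in the HIF-1α KO library, and a share taken within a library does not depend on the scaling between libraries. All intervals hold the error of counting alone, without the variation among animals. Nr1d2 gave the most UMIs of any gene in the first arm and Clock in the second, so these sums weigh the genes unequally, and with every gene weighted equally the shift was 0.46. Without Per3 it was 0.22.

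A gene is called higher or lower here when its CPM differed at least 1.5-fold and the exact Poisson intervals of the libraries did not overlap, among genes with at least 50 UMIs in both libraries together. All 10 clock genes passed this minimum in the sum of all nuclei. Of these, 2 were called higher and 0 lower in the HIF-1α KO library, beside 11.6% of all 14393 genes tested called higher and 14.4% called lower. The median log2 ratio was 0.30 over the 6 genes of the E-box and D-box arm and -0.12 over the 4 genes of the opposed arm, beside -0.009 over all genes tested.

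Among the nuclear receptors, Nr1d1, which encodes the repressor REV-ERBα (ENSMUSG00000020889, chr11:98767932-98775333 of GRCm38), had 157 UMIs in WT and 470 in HIF-1α KO nuclei. Its level was 11.8 CPM (10.1 to 13.8) and 19.9 CPM (18.2 to 21.8), a 1.68-fold difference that was called. Its relative Nr1d2, for REV-ERBβ (ENSMUSG00000021775, chr14:18204054-18239127), had 1239 and 2603 UMIs, or 93.4 and 110 CPM, and lay 1.18-fold higher without reaching the fold for a call. Both receptors were thus above WT, by unequal amounts.

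Of the Period genes, which encode the repressors of BMAL1 and its partners, Per3 (ENSMUSG00000028957, chr4:151003652-151044665) had 319 and 1083 UMIs. Its level was 24.1 CPM (21.5 to 26.9) in WT and 45.9 CPM (43.2 to 48.7) in HIF-1α KO nuclei, a log2 ratio of 0.93 (0.75 to 1.12), the highest of the 10 genes. Per2 (ENSMUSG00000055866, chr1:91415982-91459324) had 490 and 930 UMIs, or 37.0 and 39.4 CPM, and its interval of the log2 ratio, -0.07 to 0.25, held 0. Per1 (ENSMUSG00000020893, chr11:69095217-69109960), which glucocorticoids and other acute signals also induce, had 186 and 258 UMIs and went the other way, from 14.0 to 10.9 CPM, with a log2 ratio of -0.36 (-0.64 to -0.08). Of the Period genes only Per3 was called in all nuclei. Dbp, a D-box activator and a direct target of BMAL1 (ENSMUSG00000059824, chr7:45705088-45710203), had the fewest UMIs, 53 and 122, and a log2 ratio of 0.37 (-0.11 to 0.86) whose interval held 0.

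In the opposed arm, Arntl, for BMAL1 (ENSMUSG00000055116, chr7:113207465-113314126), had 1387 and 2118 UMIs. This was 105 CPM in WT and 89.7 CPM in HIF-1α KO nuclei, a log2 ratio of -0.22 (-0.32 to -0.12). Cry1, a late-peaking repressor (ENSMUSG00000020038, chr10:85131700-85185064), had 356 and 440 UMIs, or 26.8 CPM (24.1 to 29.8) and 18.6 CPM (16.9 to 20.5), with a log2 ratio of -0.53 (-0.73 to -0.32). The Cry1 intervals did not overlap, but the difference stayed under 1.5-fold. It passed that fold, to a log2 ratio of -0.74, when class levels were averaged with the same class weights in both libraries. Clock (ENSMUSG00000029238, chr5:76209868-76304792), whose transcript is known to cycle weakly in many tissues, had 3796 and 6645 UMIs and differed by -0.02 (-0.08 to 0.03). Npas2, which can stand in for CLOCK (ENSMUSG00000026077, chr1:39193731-39363236), had 1606 and 3487 UMIs and was higher by 0.29 (0.20 to 0.37), against the other members of its arm. With the same class weights in both libraries its log2 ratio was -0.07. Surface absorptive-like nuclei, in which the level of Npas2 was highest, were 520 of 4884 nuclei in WT and 838 of 4702 in HIF-1α KO.

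Because the libraries differed in their mix of nuclei, the arms were compared within each class. In 9 of 11 classes the E-box and D-box arm had a higher share of clock UMIs in HIF-1α KO than in WT nuclei, and in 8 of them the interval of the log2 shift lay above 0. In 0 classes did it lie below 0. All classes come from the same 2 libraries and are no independent repeats. In crypt enterocyte-like nuclei the share was 23.4% (20.7% to 26.1%) in WT and 34.7% (32.7% to 36.8%) in HIF-1α KO, a shift of 0.80 (0.55 to 1.06). In Gsdmc enterocyte-like nuclei, absorptive cells rich in gasdermin C transcripts, it was 24.9% and 35.6%, a shift of 0.73 (0.49 to 0.98). Cycling-like nuclei had 21.8% and 29.9%, a shift of 0.62 (0.35 to 0.88), and crypt stem-like nuclei 24.8% and 32.3%, a shift of 0.53 (0.17 to 0.90) that was 0.32 without Per3. In these 4 classes the log2 ratio of the E-box and D-box arm itself was 0.58, 0.39, 0.50 and 0.56, with intervals above 0. That of the opposed arm was -0.23 (-0.35 to -0.10) in crypt enterocyte-like and -0.34 (-0.47 to -0.21) in Gsdmc enterocyte-like nuclei, while its intervals held 0 in cycling-like (-0.25 to 0.01) and crypt stem-like nuclei (-0.16 to 0.21).

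Goblet-like nuclei, the mucus-secreting lineage, had 23.6% (21.3% to 26.0%) and 31.6% (30.01% to 33.2%), a shift of 0.58 (0.36 to 0.79), which was 0.28 without Per3. Of the 3 goblet-like clusters, the shift was 0.74 (0.41 to 1.06) in the one led by Spdef and Reg4 and 0.62 (0.24 to 1.00) in the one led by Clca1 and Fcgbp. In the smallest, led by St6gal1 and Capn9, it was 0.14 (-0.36 to 0.65).

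Surface absorptive-like nuclei, the differentiated cells at the mucosal surface, held the most clock UMIs of any class and did not show the shift. Their share of the E-box and D-box arm was 22.2% (20.4% to 24.2%) in WT and 21.4% (20.3% to 22.5%) in HIF-1α KO nuclei, a log2 shift of -0.07 (-0.26 to 0.11), an interval that lies below those of crypt enterocyte-like, Gsdmc enterocyte-like, cycling-like, crypt stem-like and goblet-like nuclei. With 1 library per genotype this difference between classes was not tested. The E-box and D-box arm stood at 196 CPM in both libraries and the opposed arm at 687 and 721 CPM. The clusters of this class gave 0.03 (-0.24 to 0.30) and -0.13 (-0.38 to 0.13). The value was 0.13 without Npas2 and 0.05 with every nucleus thinned to 1000 UMIs. It was -0.18 without integration of the libraries, -0.16 with RNA from other cells subtracted and -0.12 at a clustering resolution of 2. Enteroendocrine-like nuclei, with 88 and 142 UMIs of the E-box and D-box arm, had 26.3% (21.7% to 31.4%) and 24.1% (20.7% to 27.8%), a shift of -0.17 (-0.63 to 0.30), an interval that overlaps that of crypt stem-like nuclei and lies below those of the other classes just named. It was -0.87 with every nucleus thinned, 0.03 at a clustering resolution of 2 and 0.05 with genes weighted equally. Without surface absorptive-like nuclei, the shift over all other nuclei was 0.52 (0.43 to 0.61).

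In smooth muscle-like and fibroblast-like nuclei the share was higher in both libraries than in any epithelial class, and higher again in HIF-1α KO. Smooth muscle-like nuclei had 46.9% (42.0% to 51.9%) and 58.0% (52.0% to 63.8%), a shift of 0.64 (0.18 to 1.10) that was 0.26 with every nucleus thinned to 1000 UMIs. Fibroblast-like nuclei had 35.6% (30.3% to 41.2%) and 45.9% (39.2% to 52.7%), a shift of 0.62 (0.09 to 1.15). Among immune cells, T or innate lymphoid-like nuclei had 8 UMIs of the E-box and D-box arm and 42 of the opposed arm in WT, and 56 and 76 in HIF-1α KO, or shares of 16% (7.17% to 29.1%) and 42.4% (33.9% to 51.3%). Their shift of 1.95 (0.69 to 3.36) was the highest value and among the least precise. B cell-like nuclei had 20.7% and 32.3%, with a shift of 0.87 whose interval, -0.07 to 1.85, held 0. RNA from other cells was present in these classes. Muc2, the goblet mucin, had 279 and 318 UMIs in smooth muscle-like nuclei (427 and 669 CPM) against 4428 and 3807 CPM in goblet-like nuclei. Marker genes of other cell types reached 40.5% and 46.3% of their library level in smooth muscle-like and 42.5% and 49.2% in fibroblast-like nuclei. They reached 43.5% and 71.8% in T or innate lymphoid-like and 51.8% and 63.6% in B cell-like nuclei. In the epithelial classes, markers of smooth muscle and fibroblasts reached from 19.5% to 34.7%. With a library profile of that size subtracted, the shift was 2.16 in smooth muscle-like, 0.68 in fibroblast-like, 7.41 in T or innate lymphoid-like and 2.11 in B cell-like nuclei. The subtraction took away much of the arm counts and set negative counts to 0. The values after it are therefore no measure of the size of the shift.

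**Figure D1:**
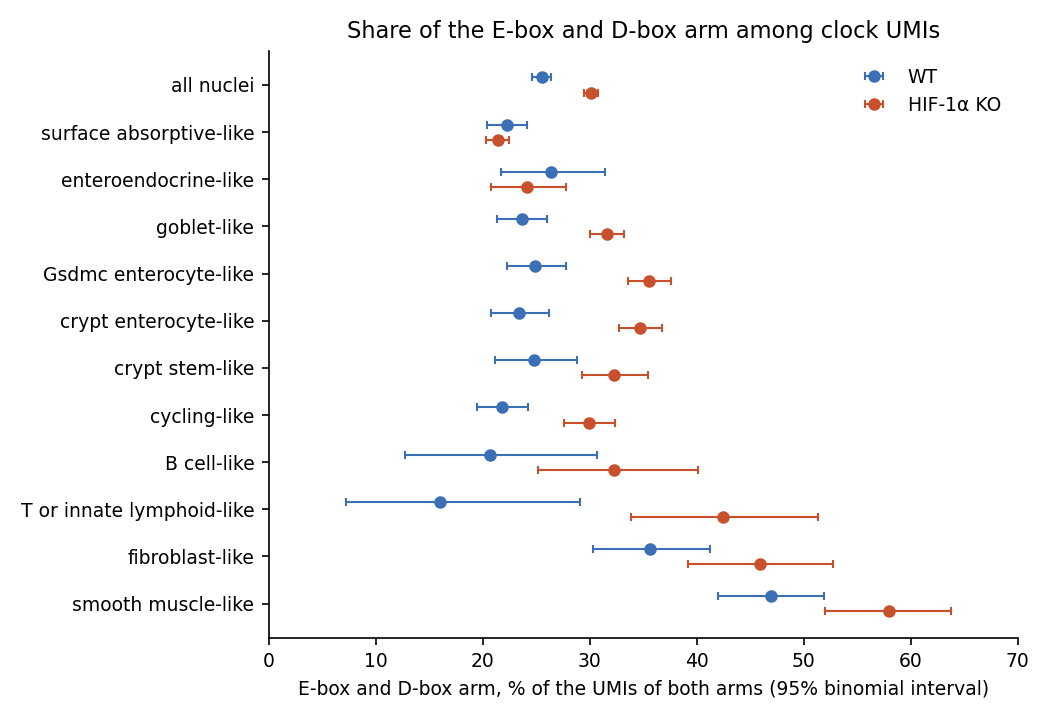
Share of the E-box and D-box arm (Nr1d1, Nr1d2, Dbp, Per1, Per2, Per3) among the UMIs of both arms, in percent on the horizontal axis, for all nuclei and 11 cell classes on the vertical axis. Points are the WT (blue) and HIF-1α KO (red) libraries and bars exact 95% binomial intervals, with the HIF-1α KO point to the right in 9 classes and the points of surface absorptive-like nuclei at 22.2% and 21.4%.

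For single genes, 61 of the 110 pairs of a class and a clock gene had at least 50 UMIs, namely all 11 classes for Clock, 9 for Nr1d2 and Npas2, 8 for Per2 and Arntl, 6 for Per3, 4 for Cry1, 3 for Nr1d1 and Per1 and 0 for Dbp. Of the 29 pairs of the E-box and D-box arm 6 were called higher and 0 lower in HIF-1α KO, and of the 32 pairs of the opposed arm 0 were called higher and 5 lower. Beside them, from 3.95% to 10.4% of all genes tested in a class were called higher and from 1.44% to 9.86% lower. With DESeq2 size factors, which centre each class on its median gene, the calls over both arms were 4 higher and 8 lower. With every nucleus thinned to 1000 UMIs, which leaves fewer UMIs to count, they were 2 higher and 3 lower.

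Per3 made 4 of the 6 calls of higher levels. In goblet-like nuclei it had 61 and 377 UMIs, or 32.5 CPM (24.9 to 41.8) and 75.7 CPM (68.3 to 83.8), a log2 ratio of 1.22 (0.83 to 1.63). In crypt stem-like nuclei it had 6 and 51 UMIs, 8.71 CPM (3.20 to 19.0) and 47.2 CPM (35.1 to 62.0), a log2 ratio of 2.44 (1.22 to 3.95). Cycling-like nuclei had 25 and 72 UMIs and a log2 ratio of 1.25 (0.58 to 1.97), and crypt enterocyte-like nuclei 41 and 150 UMIs and 0.73 (0.22 to 1.26). In surface absorptive-like nuclei Per3 stood at 21.4 and 18.9 CPM, with overlapping intervals. The interval of its log2 ratio lay above 0 in 6 classes and below 0 in 0. The 6 include fibroblast-like (10 and 19 UMIs) and smooth muscle-like nuclei (14 and 21), both under the minimum of 50 UMIs.

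The gene model of Per3 lies wholly inside that of Camta1, a transcription activator, on the same strand, so a read from the shared stretch may belong to either gene, and how such reads were assigned is not given in the sources used here. Camta1 itself had 1328 and 1710 UMIs and a log2 ratio of -0.47 in all nuclei, opposite in sign to Per3. Its log2 ratio was also -0.47 in goblet-like nuclei, -0.90 in surface absorptive-like nuclei and 0.04 in crypt stem-like nuclei. Nr1d1 overlaps Thra and Dbp overlaps Sphk2, each on the other strand, and these neighbours had log2 ratios of 0.17 and -0.29 in all nuclei.

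**Figure D2:**
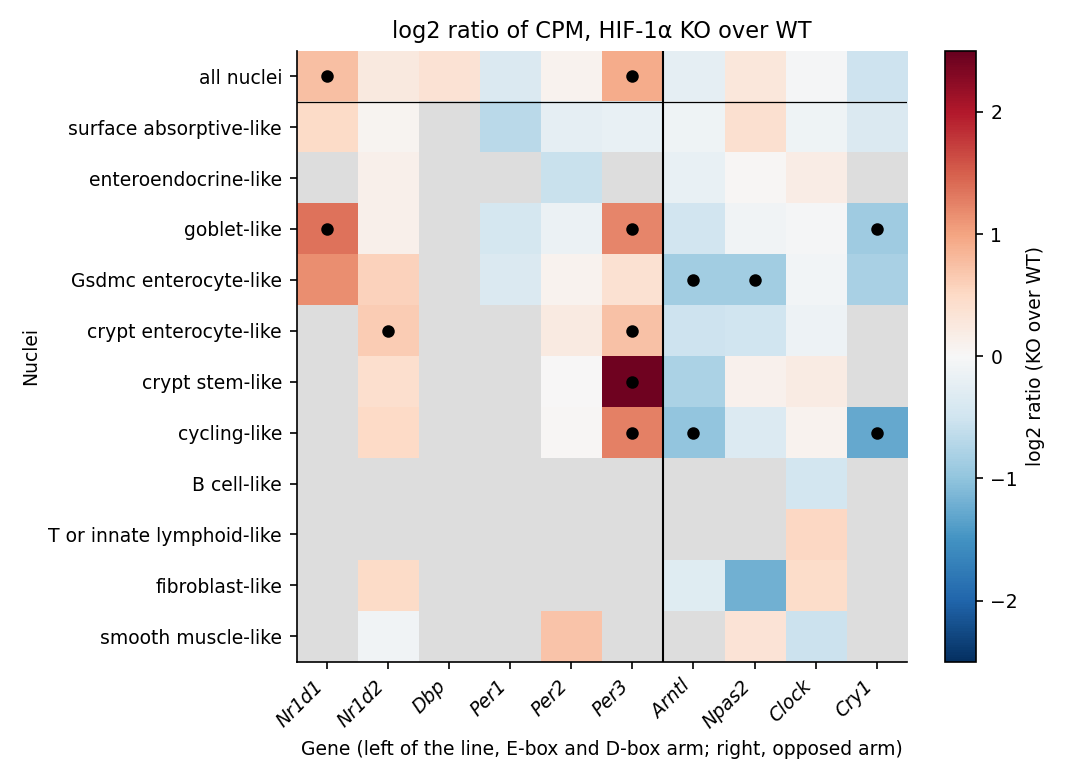
Log2 ratio of CPM, HIF-1α KO over WT (colour scale), for each clock gene on the horizontal axis, with the E-box and D-box arm left of the vertical line, in all nuclei and in 11 classes on the vertical axis. Grey cells had fewer than 50 UMIs in both libraries together and dots mark called genes, which among the classes were 6 higher on the left and 5 lower on the right.

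Goblet-like and cycling-like nuclei had 3 called clock genes each. In goblet-like nuclei 6.91% of 9340 genes tested were called higher and 6.90% lower. Nr1d1 had 9 and 61 UMIs there, 4.8 CPM (2.20 to 9.12) and 12.3 CPM (9.37 to 15.7), and was called higher with Per3. Cry1 had 52 and 75 UMIs, 27.7 CPM (20.7 to 36.4) and 15.1 CPM (11.9 to 18.9), and was called lower, with a log2 ratio of -0.88 (-1.41 to -0.34). In cycling-like nuclei, with 8.12% of genes called higher and 3.78% lower, Arntl (133 and 81 UMIs, 82.6 and 41.6 CPM) and Cry1 (36 and 18 UMIs, 22.4 and 9.25 CPM) were called lower, by log2 ratios of -0.99 and -1.27. With every nucleus thinned to 1000 UMIs these ratios were -0.42 and -0.25. In Gsdmc enterocyte-like nuclei, with 6.49% of genes called higher and 4.69% lower, the partners Arntl and Npas2 were both called lower. Arntl had 157 and 216 UMIs (120 and 65.9 CPM) and Npas2 123 and 168 UMIs (93.7 and 51.2 CPM), with log2 ratios of -0.86 (-1.16 to -0.55) and -0.87 (-1.21 to -0.52).

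In crypt enterocyte-like nuclei, with 7.39% of genes called higher and 4.26% lower, Nr1d2 was called higher with Per3. It had 112 and 386 UMIs, 96.0 and 150 CPM, and a log2 ratio of 0.64 (0.33 to 0.96), while Arntl and Npas2 stood at -0.52 and -0.50 without reaching the fold for a call. With DESeq2 size factors the log2 ratio was 0.56 for Nr1d2, under the fold for a call, and 0.65 for Per3. Neither Nr1d2 nor Per3 was then called in this class. In crypt stem-like nuclei, with 10.4% called higher and 3.77% lower, only Per3 was called. Cry1, which had too few UMIs there to be tested, had 17 in WT and 4 in HIF-1α KO nuclei. In cycling-like nuclei Dbp, also under the minimum, had 0 and 8 UMIs. Its Poisson intervals overlapped, up to 2.29 CPM in WT and from 1.78 CPM in HIF-1α KO, and the interval of its log2 ratio began at 0.50. With WT set to a floor of 3 UMIs, Dbp was 2.21-fold higher. In surface absorptive-like nuclei, with 6.80% called higher and 9.86% lower, none of the 9 clock genes tested was called. Npas2 there had 521 and 1861 UMIs, 237 CPM (217 to 258) and 311 CPM (297 to 325), a log2 ratio of 0.39 (0.25 to 0.53), the opposite sign to that in Gsdmc enterocyte-like nuclei.

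In the other 5 classes no clock gene was called. The share of all genes called higher and lower was 3.95% and 2.56% in enteroendocrine-like, 6.21% and 3.12% in smooth muscle-like, 4.31% and 2.36% in fibroblast-like, 7.51% and 1.44% in B cell-like and 8.86% and 3.69% in T or innate lymphoid-like nuclei. Few clock genes could be tested there, from 1 in the B cell-like and T or innate lymphoid-like to 5 in the enteroendocrine-like class. In fibroblast-like nuclei Npas2 had 43 and 12 UMIs, 79.3 and 34.6 CPM, a log2 ratio of -1.20 (-2.25 to -0.25), and its Poisson intervals overlapped. In crypt stem-like, B cell-like and T or innate lymphoid-like nuclei DESeq2 size factors would move every log2 ratio by -0.17, -0.21 and -0.18.

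The 11 classes come from the same 2 libraries and share their free RNA, so counts of classes are no independent repeats. The share of all genes with so constant a sign, or with intervals as often off 0, was not counted. Across the classes Arntl was the gene of one direction, below WT in all 11 classes, with the interval of its log2 ratio below 0 in 5. Cry1 was below WT in 9 of 11 classes, with the interval below 0 in 6. Of these 6, crypt stem-like (17 and 4 UMIs) and fibroblast-like nuclei (16 and 2) were under the minimum of 50 UMIs. Nr1d1 and Nr1d2 were above WT in 10 of 11 classes each and Per3 in 9, with the interval above 0 in 4, 4 and 6. Among these, Nr1d1 was under the minimum in crypt enterocyte-like nuclei (5 and 34 UMIs). Per3 was under it in fibroblast-like (10 and 19) and smooth muscle-like nuclei (14 and 21). Per1 was above WT in 4 and below in 7, Per2 above in 8 and below in 3, Npas2 and Clock above in 5 and below in 6. Dbp was above in 9 and below in 2. With DESeq2 size factors no sign turned for Arntl, Cry1, Nr1d1, Nr1d2, Per1 and Per3, while it turned in 2 classes each for Per2 and Dbp, 3 for Npas2 and 1 for Clock.

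Levels were also compared between classes. Each class was set against all other nuclei of its library, and a gene was called when it passed the 1.5-fold and interval rule in the same direction in both libraries, which 7 of 110 pairs did as higher and 10 as lower. Other pairs differed in sign between the libraries, such as Nr1d1 in fibroblast-like nuclei, at 1.94-fold the other nuclei in WT and 0.87-fold in HIF-1α KO. That example rests on 12 and 6 UMIs, and the levels of 22.1 CPM (11.4 to 38.7) and 17.3 CPM (6.35 to 37.7) had overlapping intervals. Surface absorptive-like nuclei were higher than other nuclei in 4 clock genes of both arms, beside 9.54% of 11846 genes. Npas2 was 2.42-fold higher in WT and 3.37-fold in HIF-1α KO, Arntl 2.06-fold and 2.74-fold, Cry1 2.10-fold and 3.02-fold and Nr1d1 2.56-fold and 2.22-fold. Crypt enterocyte-like nuclei were higher in Clock, 1.67-fold and 1.56-fold, beside 2.61% of genes, and lower in Nr1d1, with log2 differences of -1.55 and -0.65, and in Cry1, with -1.13 and -1.03, beside 10.8%.

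In smooth muscle-like nuclei Dbp and Nr1d1 of the E-box and D-box arm were called higher, while Nr1d2, Per1, Per2 and Per3 were not called. Dbp was 4.48-fold higher there than in other nuclei in WT and 4.35-fold in HIF-1α KO, from 10 UMIs in each library, and Nr1d1 2.65-fold and 2.16-fold, beside 7.59% of genes called higher. Arntl, at log2 differences of -1.28 and -1.63, and Npas2, at -1.60 and -1.51, were lower there, beside 11.2% called lower. Npas2 was also lower in fibroblast-like (-0.63 and -2.11, beside 8.75% of genes), B cell-like (-1.38 and -1.56, beside 5.61%), crypt stem-like (-0.66 and -0.84, beside 7.42%) and cycling-like nuclei (-0.74 and -1.37, beside 12.3%). Nr1d1 was lower in cycling-like nuclei, at -1.57 and -1.35, and in goblet-like nuclei, at -1.44 and -0.84, beside 13.8%.

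The order of the levels followed these calls. Npas2 ranged from 41.3 CPM in smooth muscle-like to 237 CPM in surface absorptive-like nuclei of WT, and from 28.04 CPM in T or innate lymphoid-like to 311 CPM in surface absorptive-like nuclei of HIF-1α KO. Arntl was lowest in smooth muscle-like nuclei of both libraries, at 44.4 and 29.5 CPM, and highest in surface absorptive-like nuclei, at 183 CPM (166 to 202) and 171 CPM (160 to 181). Cry1 was highest in the same class, at 47.8 and 37.2 CPM. Nr1d1 was highest in smooth muscle-like nuclei, at 29.1 CPM (17.5 to 45.4) and 42.1 CPM (25.7 to 65.0), whose intervals overlapped those of surface absorptive-like nuclei next in order, at 24.1 CPM (18.1 to 31.5) and 33.7 CPM (29.2 to 38.7). Nr1d1 was lowest in enteroendocrine-like nuclei, at 2.16 and 6.36 CPM, from 1 and 5 UMIs. Per3 was highest in Gsdmc enterocyte-like nuclei of WT, at 38.1 CPM (28.3 to 50.2), and in goblet-like nuclei of HIF-1α KO, at 75.7 CPM (68.3 to 83.8). Per3 was lowest in surface absorptive-like nuclei of HIF-1α KO, at 18.9 CPM (15.6 to 22.7), and had 0 of 121401 UMIs in T or innate lymphoid-like nuclei of WT, a depth at which up to 3 UMIs may go unseen. Between the highest and the lowest class Clock was spread 3.04-fold in WT and 2.78-fold in HIF-1α KO, Nr1d2 4.05-fold and 2.41-fold, Per2 4.35-fold and 2.08-fold, Arntl 4.13-fold and 5.79-fold and Npas2 5.74-fold and 11.1-fold. Some of the lowest values rest on few UMIs. In WT these were 5 for Nr1d2 in T or innate lymphoid-like and 7 for Per2 in fibroblast-like nuclei. In HIF-1α KO, Npas2 had 7 in T or innate lymphoid-like nuclei. No interval was computed for the spreads, and their differences between the libraries were not tested.

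**Figure D3:**
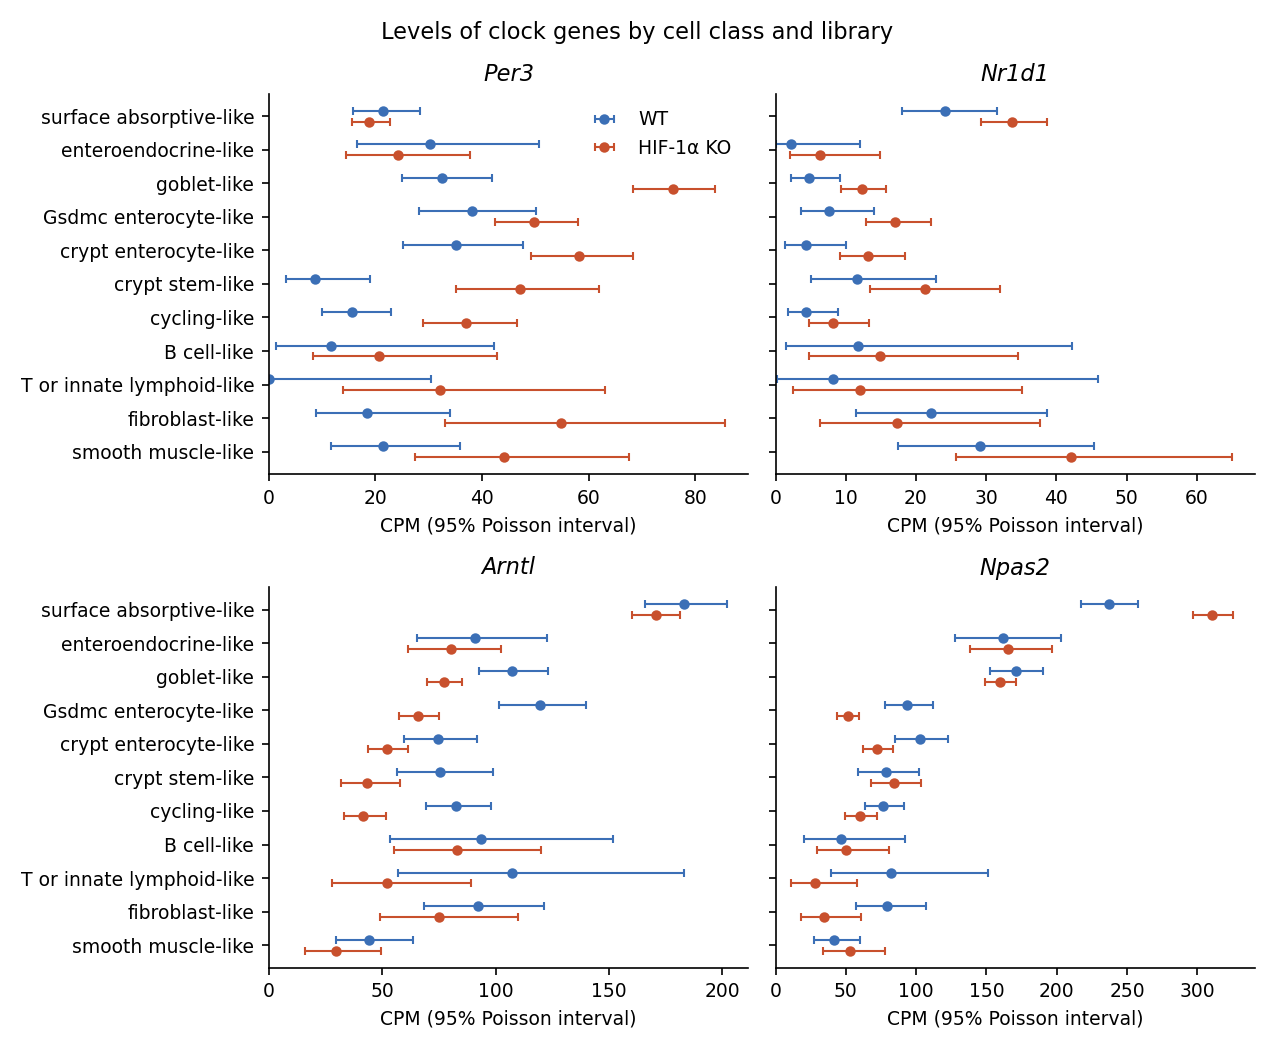
Levels of Per3, Nr1d1, Arntl and Npas2 in CPM on the horizontal axes, with exact 95% Poisson intervals, in 11 cell classes on the vertical axes, for the WT (blue) and HIF-1α KO (red) libraries. Per3 was called between the libraries in goblet-like, crypt enterocyte-like, crypt stem-like and cycling-like nuclei, Arntl in Gsdmc enterocyte-like and cycling-like nuclei, Nr1d1 in goblet-like and Npas2 in Gsdmc enterocyte-like nuclei, and both Arntl and Npas2 are highest in surface absorptive-like nuclei.

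Of 19 other genes of the clock, 17 had at least 50 UMIs in all nuclei, of which 1 was called higher and 2 lower, beside the 11.6% and 14.4% of all genes, with a median log2 ratio of -0.14. Among the nuclear receptors that oppose REV-ERB at the same DNA elements, Rora had 2665 and 1214 UMIs, 201 and 51.4 CPM, and was called lower with a log2 ratio of -1.97 (-2.07 to -1.87). Its relative Rorb (66 and 210 UMIs, 0.84) was called higher. Rora was called lower in 10 of the 11 classes, with log2 ratios from -3.23 in crypt enterocyte-like to -0.72 in fibroblast-like nuclei, and in B cell-like nuclei, with 14 and 9 UMIs, it was under the minimum for a call, at -1.62 (-3.01 to -0.31). Of the output genes, Wee1, a kinase that holds cells before mitosis, was called lower, with 300 and 333 UMIs and a log2 ratio of -0.68 (-0.91 to -0.45). The other output genes, Usp2 at 0.44 (0.12 to 0.77) and Nampt at 0.37 (0.24 to 0.50), lay higher and were not called. Among the repressors Cry2 stood at 0.01 (-0.16 to 0.19), apart from Cry1, Bhlhe40 at -0.26 and Ciart at -0.72 (-1.25 to -0.19). The D-box activators related to Dbp were divided, with Tef at 0.35 and Hlf at -0.73.

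Per1 and Per2 are also induced acutely, so lists of such genes were set beside them. Of 6 glucocorticoid-induced genes 5 could be tested, and 0 were called higher and 3 lower in all nuclei, beside 11.6% and 14.4% of all genes. They were Fkbp5 (4417 and 4207 UMIs, log2 ratio -0.90), Sgk1 (891 and 398, -1.99) and Zbtb16 (1265 and 424, -2.41), while Klf9 stood at 0.57 and Tsc22d3 at -0.03. Of 8 immediate-early genes, beside the same shares, 4 were called higher and 0 lower, namely Jun (277 and 1237 UMIs, 1.33), Atf3 (188 and 1081, 1.69), Fosb (66 and 233, 0.99) and Egr1 (215 and 731, 0.93). Per1 stood at -0.36 beside them. In surface absorptive-like nuclei, where the arms did not shift, the first list had 3 genes called lower and the second 4 called higher, beside 6.80% of all genes called higher and 9.86% lower. In goblet-like nuclei 3 were called lower in the first and 2 higher and 1 lower in the second, beside 6.91% and 6.90%. The part of these acutely induced genes in the levels of the clock genes was not tested.

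**Figure D4:**
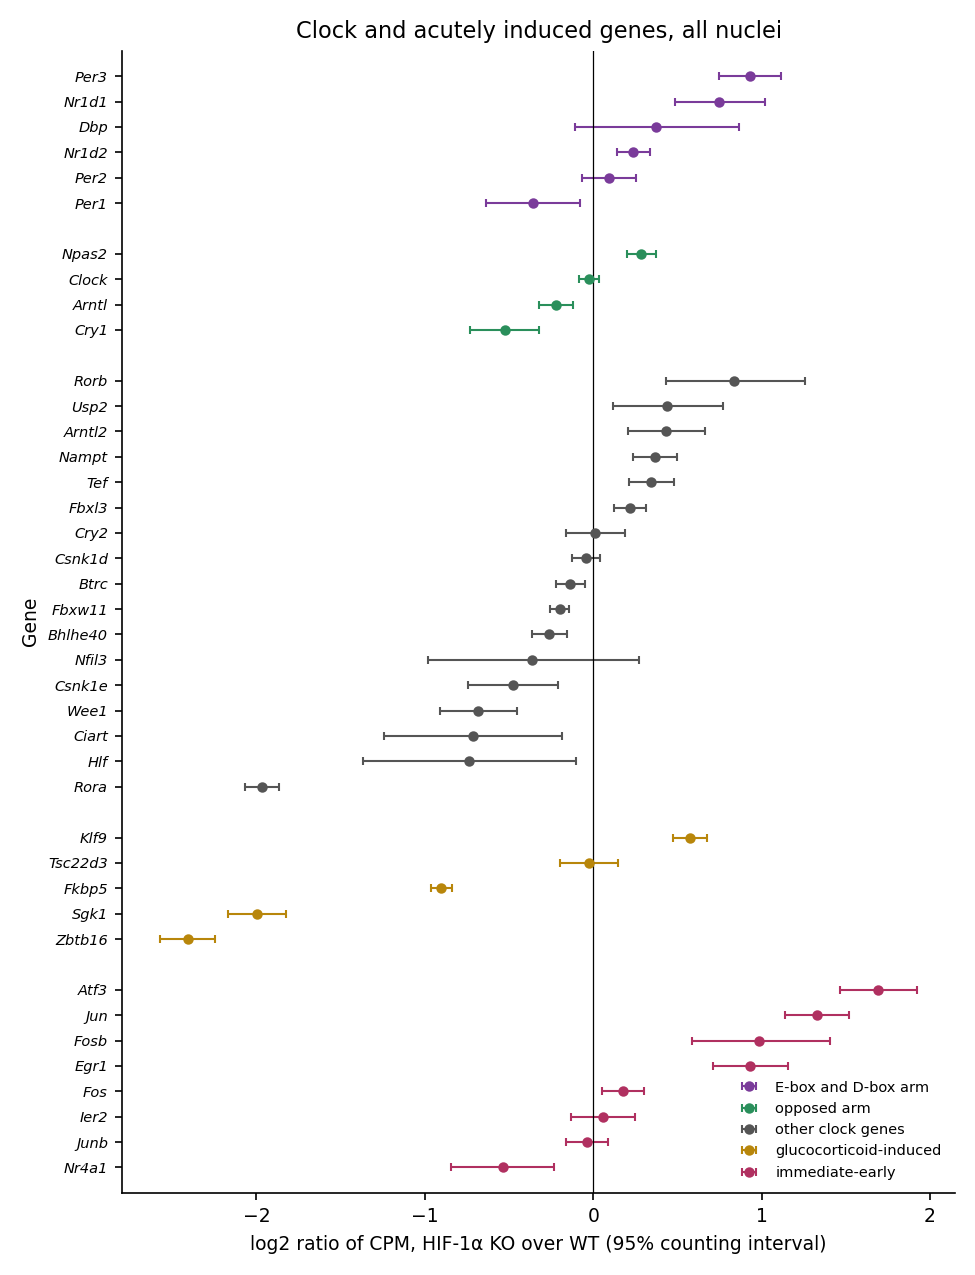
Log2 ratio of CPM, HIF-1α KO over WT, in all nuclei on the horizontal axis, with 95% counting intervals, for the 10 clock genes by arm, for other clock genes and for glucocorticoid-induced and immediate-early genes on the vertical axis. Per3 (0.93) and Nr1d1 (0.75) lead the E-box and D-box arm, Cry1 (-0.53) is the lowest of the opposed arm, and Rora (-1.97) is the lowest other clock gene.

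Over the 22 sums of a class in a library, the mean levels of the arms, as log2(CPM + 10) with each gene centred, had a Pearson correlation of -0.32 with each other. Among 7875 genes with at least 200 UMIs in each library, those most like the E-box and D-box arm were Pnisr (r = 0.87), Cfl2 (0.82), Usp47 (0.80), Homer1 (0.79) and Sh3bp5l (0.78). Those most like the opposed arm were Eps8 (0.80), F2rl1 (0.79), Rab11fip4 (0.78), Eps8l2 (0.78) and Ppnr (0.77). The 22 points share 2 libraries and differ in depth, and the values are given as a description.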

How the data were processed

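Per the labels and methods, the authors prepared nuclei with 10x Genomics Chromium 3′ chemistry and aligned the reads with Cell Ranger 7.0.1 to mm10 (GRCm38), as the submitters' processing notes state. They deposited counts of UMIs per gene and nucleus, without normalization, for the barcodes kept by the default calling of the program. Whether intronic reads were counted is not given in the sources used here.

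The clock genes and the gene lists beside them were chosen with earlier results of these data known, and 1 gene of the list of other clock genes is not reported here. Nuclei were filtered as in the methods and integrated and clustered with Seurat 5.3.0 (R 4.3.3, 2000 variable features without clock genes, 30 principal components, resolution 1, seed 1). A cluster took the class with the highest mean log2 marker ratio (10 CPM added) if at least 3 of its markers reached a log2 ratio of 1 in 10% of nuclei and 1 was among the 10 leading genes. The naming limits were chosen with the data in view. Scrublet (scanpy 1.11.5) marked 1 of 9586 nuclei and was no working filter for doublets.

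UMIs were summed per library and class with Python 3.11.15 and scipy 1.17.1. Sums have exact 95% Poisson intervals, shares exact binomial intervals and log2 ratios exact conditional intervals, which cover counting error only, and no test was made with 1 library per genotype. The calling step was run on simulated counts drawn with Poisson error alone. These held no variation among animals and no free RNA, so they cannot show how the calls fare under either. Genes were named as the 10 clock genes, the called genes of the other clock list, and the 5 genes most correlated with each arm, and other genes of the lists were named after their values were seen. Gene positions are from GENCODE M21, which held 32158 of 32285 identifiers. Alternatives were all barcodes, thinning to 1000 UMIs (leaving out 0 WT and 63 HIF-1α KO nuclei), equal weights of nuclei, classes or genes, edgeR 4.0.16 (TMM) and DESeq2 1.42.0 size factors, a minimum of 10 UMIs, doublet calls left out, single genes left out, resolutions of 0.5 and 2, no integration, and subtraction of free RNA. The omission of Per3, of Npas2, of the unnamed clusters and of surface absorptive-like nuclei was chosen after seeing the data.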

Additional observations from a re-analysis of the deposited data

Results flagged for a closer look

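The log2 shift of the ratio of the arms between the libraries was -0.073 in surface absorptive-like and -0.17 in enteroendocrine-like nuclei, opposite in sign to the other 9 classes, where it lay above 0. The difference between these classes and the others was not tested. The intervals of both values held 0, at -0.26 to 0.11 and -0.63 to 0.30. The sign turned in surface absorptive-like nuclei when thinned to 1000 UMIs (0.053) and without Npas2 (0.13), and in enteroendocrine-like nuclei at resolution 2 (0.035) and with genes weighted equally (0.046). Other alternatives lay further below 0. In surface absorptive-like nuclei these were no integration (-0.18), free RNA subtracted (-0.16) and resolution 2 (-0.12). In enteroendocrine-like nuclei they were thinning (-0.87) and free RNA subtracted (-0.36).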

How the results depend on the processing

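Of 145 alternatives for the comparisons 118 left the value within its spread or its count within 1.5 times, and of 137 for single genes 119 did, 17 moved and 1 reversed, the log2 ratio of Npas2 in all nuclei, which was 0.29 and became -0.071 with the same class weights. These counts include alternatives that could change little or nothing and are no measure of robustness. Scaling and the minimum of UMIs for a call cannot change the shift of the arms, a ratio of sums within each library. Over all nuclei, TMM and DESeq2 size factors move every log2 ratio by only 0.005 and 0.009. Leaving out doublet calls removed 1 of 9586 nuclei. The shift of the arms in all nuclei, 0.33, was above 0 under each alternative. It was 0.44 with nuclei weighted equally, 0.54 with the same class weights, 0.46 with genes weighted equally, 0.45 without Per1 and Per2, 0.22 without Per3 and 0.52 without surface absorptive-like nuclei. The count of clock genes called lower was 1 in place of 0 when thinned, with nuclei weighted equally and with the same class weights (the last 2 by fold alone), and thinning left 0 other clock genes called higher and 1 lower in place of 1 and 2.

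Within classes, weighting genes equally moved the shift to 1.08 in Gsdmc enterocyte-like, 1.36 in crypt enterocyte-like, 1.503 in crypt stem-like and 0.99 in goblet-like nuclei. Subtracting free RNA moved it to 2.11 in B cell-like, 7.41 in T or innate lymphoid-like and 2.16 in smooth muscle-like nuclei. Those values rest on the few counts left, with negative counts set to 0, and do not measure the size of the shift. Thinning moved the shift to 0.32 in cycling-like and -0.87 in enteroendocrine-like nuclei. Moves of over 1.5 times within the counting spread included 0.26 in smooth muscle-like and 0.503 in B cell-like nuclei when thinned and 1.12 in fibroblast-like nuclei with genes weighted equally. They also included -0.18 without integration, -0.16 with free RNA subtracted and -0.12 at resolution 2 in surface absorptive-like nuclei. In enteroendocrine-like nuclei the shift was -0.36 with free RNA subtracted. Without Per3 the shift was 0.28 in goblet-like and 0.32 in crypt stem-like and without Npas2 0.13 in surface absorptive-like nuclei. Pairs called higher, 6, became 2 when thinned. Pairs called lower, 5, became 3 when thinned, 8 at resolution 0.5 and 8 with DESeq2 size factors. Pairs lower in a class than in other nuclei, 10, became 17 with free RNA subtracted. The cause of these moves was not tested. Thinning left fewer UMIs to count, gave each nucleus the same total and left out 63 HIF-1α KO and 0 WT nuclei.

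Crypt stem-like nuclei gave no value at resolution 0.5 or without integration, crypt enterocyte-like nuclei none without integration and T or innate lymphoid-like nuclei none at resolution 2, since no cluster took the name. Equal weights of genes gave none in classes with a gene at 0 UMIs, and the calls between libraries were not run with free RNA subtracted. No paired analysis was possible because each genotype had 1 library. The WT library limits the depth, with 2058.5 UMIs per nucleus at the median, and Dbp reached 50 UMIs in 0 classes.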

Other observations

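Classes and clusters outside the comparisons, with fewer than 50 nuclei in a library or without a name, gave these values. In the unnamed clusters, the E-box and D-box arm made up 26.8% (23.6% to 30.3%) of clock UMIs in 716 WT nuclei and 39.2% (32.2% to 46.5%) in 144 HIF-1α KO nuclei of the first, a log2 shift of 0.81 (0.30 to 1.31). In the second it made up 25.2% (21.03% to 29.7%) and 36.9% (32.8% to 41.1%), a shift of 0.79 (0.37 to 1.22). Without the 3 unnamed clusters the shift over all nuclei was 0.32. Endothelial-like nuclei gave a shift of 0.04 (-0.98 to 1.05) in 79 WT and 33 HIF-1α KO blood endothelial-like nuclei and -0.21 (-1.14 to 0.72) in 76 and 40 lymphatic endothelial-like nuclei. The shares in WT and HIF-1α KO were 30.7% and 31.3% in blood and 36.1% and 32.9% in lymphatic endothelial-like nuclei. The 27 and 22 enteric neuron-like nuclei gave 0.73 (-0.38 to 1.85). The intervals of these last 3 classes held 0.

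Among other clock genes within classes, values called between the libraries stood apart from those of all nuclei in a few places, chosen after their values were seen. Arntl2, the relative of Arntl, was called higher in goblet-like nuclei, with 37 and 178 UMIs and a log2 ratio of 0.86, and in smooth muscle-like nuclei, with 20 and 33 UMIs and 1.18, where Arntl itself stood at -0.48 and -0.59. Tef, a D-box activator, was called higher in crypt stem-like nuclei, with 26 and 76 UMIs and 0.90, and in smooth muscle-like nuclei, with 53 and 70 UMIs and 0.86. Nampt, an enzyme of NAD synthesis and a clock output, was called higher in cycling-like nuclei, with 49 and 102 UMIs and 0.78. Bhlhe40, a repressor at E-boxes, was called lower in surface absorptive-like nuclei, with 372 and 637 UMIs and -0.67. Klf9, a glucocorticoid-induced factor that the clock also drives, was called higher in crypt enterocyte-like nuclei, with 84 and 380 UMIs and 1.03, and in Gsdmc enterocyte-like nuclei, with 128 and 501 UMIs and 0.65, while Fkbp5 was called lower in both, with -0.75 and -0.66.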
